A study of Homo sapiens with 4 samples.

Results

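The genes examined here encode proteins that fold, hold together, untangle and coat mitotic chromosomes, and they were followed in HaCaT keratinocytes with and without knockdown of ALKBH5. Of the 58735 genes listed in the deposited expression tables, 10 were taken by gene name, from a list made with earlier results of these data known: SMC2, SMC4, NCAPD2, NCAPG and NCAPH of condensin I, SMC1A, SMC3 and RAD21 of cohesin, TOP2A (DNA topoisomerase II alpha) and MKI67 (the Ki-67 antigen). HaCaT (HaCAT in the sample labels) is an established, spontaneously immortalized line of human keratinocytes, and the cells were transfected with siRNA against ALKBH5 (siALKBH5), an enzyme that removes methyl groups from RNA, or with a control siRNA (siControl). Poly-A RNA was sequenced in 4 libraries, 2 per group, to ask which transcripts change when ALKBH5 is reduced. The labels do not say which ALKBH5 siRNA was used, how long the knockdown lasted or whether the libraries of a group came from separate cultures, so the p-values measure only the spread between these libraries, which may be technical.

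Condensin and cohesin are ring-shaped complexes built on pairs of SMC proteins, long coiled-coil ATPases whose ends are closed by a kleisin subunit. Condensin compacts chromatin into mitotic chromosomes, whereas cohesin keeps sister chromatids together from replication to anaphase and forms chromatin loops in interphase. TOP2A passes DNA strands through each other to resolve tangles, and Ki-67 coats the surface of mitotic chromosomes and is widely used to mark proliferating cells, which in epidermis are mostly in the basal layer. Transcripts of TOP2A, MKI67 and many condensin subunits peak late in the cell cycle, and the cell cycle genes homology region (CHR), usually TTTGAA, together with CCAAT boxes is a textbook element of promoters with such timing.

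Promoter windows of the members were searched to show which of them hold the letters of the CHR and of CCAAT boxes. Whether these motifs bear on the expression values was not tested. RefSeq windows (GRCh38.p14) were found for 9 of the 10 members, the exception being RAD21. The 250 bases before the RefSeq start were searched on both strands for the CHR, spelled TTTGAA or TTTAAA, and for CCAAT. The RefSeq start can differ from the gene start in the deposited expression tables. For SMC4, NCAPD2 and NCAPG it lies downstream, so their CHR matches fall inside the gene coordinates given below. A CHR match was present in 6 of 9 members (66.7%), against 22.1% of all 27305 windows and 13.9% of the 10374 windows of genes tested for expression. CCAAT was present in 4 of 9 members (44.4%), against 33.0% of all windows and 35.0% of those of genes tested, and both motifs were present in 3 of 9 (33.3%), against 7.85% and 5.32%. The sequences below are the CHR matches of SMC3, SMC4, NCAPD2, NCAPG and TOP2A with their surroundings and the proximal promoter of MKI67, each written 5′ to 3′ on the strand of the gene. Capitals mark the CHR, which reads TTCAAA where it lies on the other strand, and in MKI67 also CCAAT, which reads ATTGG there.
SMC3, chr10:110567532-110567561, plus strand: cagaattctagaTTCAAAagaaatccacca
SMC4, chr3:160399563-160399592, plus strand: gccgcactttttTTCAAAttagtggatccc
NCAPD2, chr12:6493945-6493974, plus strand: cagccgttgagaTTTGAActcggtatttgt
NCAPG, chr4:17810932-17810961, plus strand: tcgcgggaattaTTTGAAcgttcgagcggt
TOP2A, chr17:40418073-40418102, minus strand: cgagtggtgcctTTTGAAgcctctctagtc
TOP2A, chr17:40418030-40418059, minus strand: ctgattggtttaTTCAAAcaaaccccggcc
MKI67, chr10:128126424-128126543, minus strand: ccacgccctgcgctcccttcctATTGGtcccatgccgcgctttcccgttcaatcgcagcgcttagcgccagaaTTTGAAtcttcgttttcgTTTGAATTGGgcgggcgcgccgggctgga
In MKI67 the CHR match closest to the start shares 1 base with a CCAAT match. TOP2A held 4 CCAAT matches, NCAPD2 held 4 and NCAPH held 1, and neither motif was found in the windows of SMC1A and SMC2. A match describes the letters of the window and is not a measurement of binding.

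The libraries held between 16017502 and 18837807 counts on genes, and levels are given as CPM, counts scaled over all genes to a common library size with TMM (1e+06 counts per library). ALKBH5, the targeted gene, stood at 93.8 and 87.6 CPM in siControl and at 51.2 and 49.6 CPM in siALKBH5, 55.5% of the control mean, and it was called lower (log2 fold change -0.85 ± 0.053 (SE), adjusted p = 6.4e-15, edgeR quasi-likelihood test). The keratinocyte markers KRT5, KRT14, TP63, CDH1, KRT17 and KRT6A were present and summed to 15720 and 15300 CPM in siControl and to 21110 and 21170 CPM in siALKBH5, with 3 of 6 called higher and 2 lower. KRT5 made the largest part of the difference in that sum, with 7034 CPM on average in siControl and 11250 CPM in siALKBH5 (log2 fold change 0.68). KRT6A (0.63) and KRT14 (0.22) were also called higher, and TP63 (-0.091) and KRT17 (-0.076) lower. Markers of differentiated keratinocytes (KRT1, KRT10, IVL, LOR and FLG) summed to between 1655 and 1693 CPM in every library, with 1 of 5 called higher and 3 lower. This even sum held changes in both directions, with KRT1 (0.27) called higher and KRT10 (-0.29), IVL (-0.47) and FLG (-0.49) lower. The 5 fibroblast markers summed to 21.9 and 22.8 CPM in siControl and to 18.7 and 19.0 CPM in siALKBH5, with COL1A2 and PDGFRB at 0 in all libraries and 2 called lower. Sums over melanocyte and immune markers were at most 4.23 CPM, with the immune marker CD14 called higher (log2 fold change 0.64, adjusted p = 0.034). Those over endothelial markers were between 32.5 and 35.5 CPM. Within them VWF was called higher (0.51, adjusted p = 2.1e-05) and CDH5 lower (-0.69, adjusted p = 5e-05). The part of these marker changes in the results below was not tested.

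All 10 members were higher in siALKBH5 than in siControl. Each was called at an adjusted p under 0.05, with 2913 of 15075 genes tested called higher (19.3%) and 2610 called lower (17.3%), and the 2 siALKBH5 libraries lay above both siControl libraries for 10 of 10 members, as they did for 32.8% of genes tested. Because well measured genes are called more often, the members were also set beside the 6808 genes tested at or above the mean level of the lowest member, 23.1 CPM, of which 29.5% were called higher with a median log2 fold change of 0.010. The members' median log2 fold change was 0.74, whereas that of all genes tested was -0.0081. None of the 10 (0) reached a log2 fold change of 1, whereas 1.62% of genes tested were called higher with at least that change. In bulk RNA, more cells in a phase that expresses these genes and more RNA per cell cannot be told apart.

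**Figure D1:**
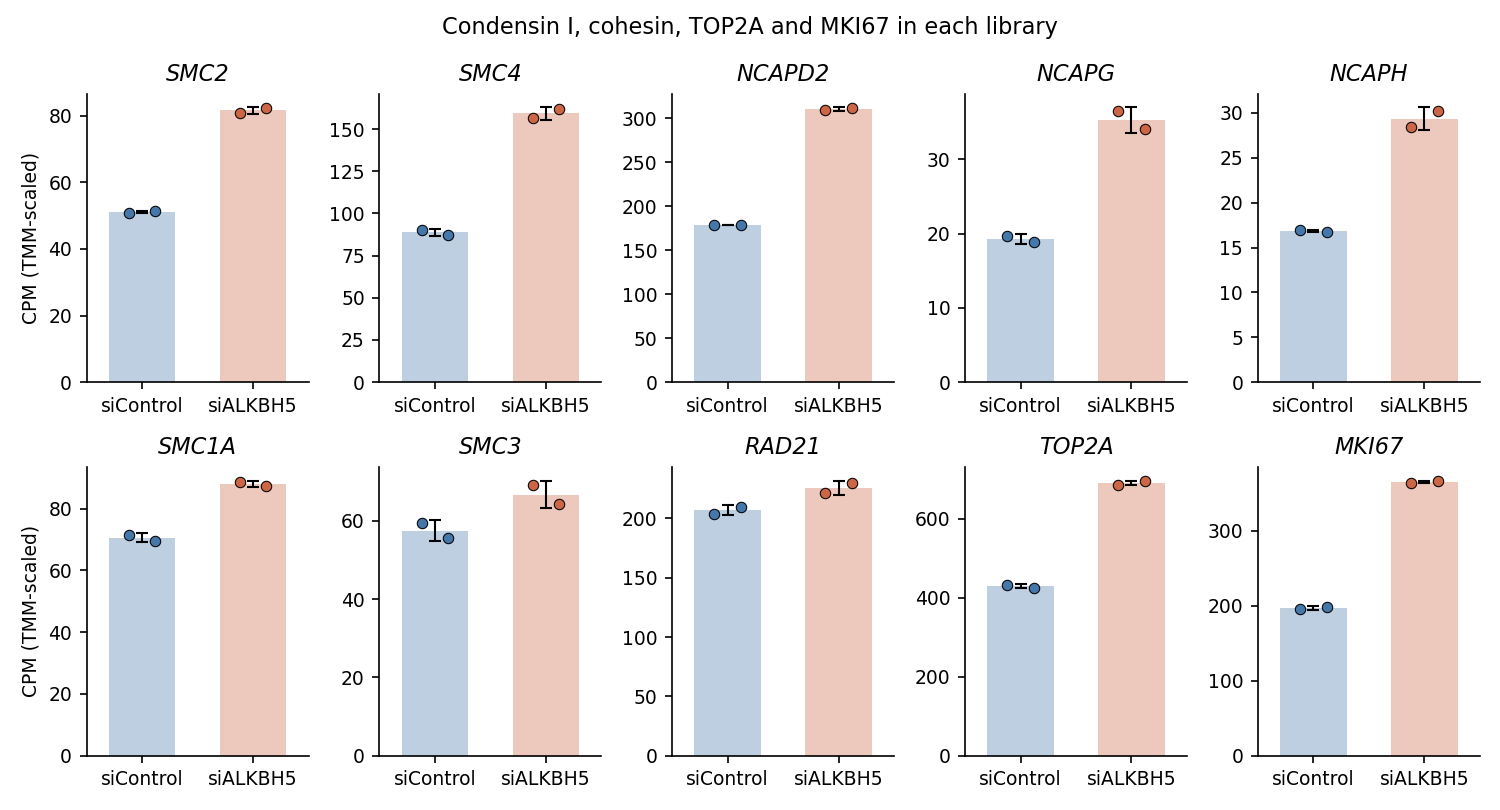
Level of each of the 10 members in CPM (vertical axis, linear from 0) in siControl and siALKBH5. Bars are means, error bars are SD and points are the 2 libraries of a group, and in every panel both siALKBH5 points lie above both siControl points, by the smallest ratio in RAD21 (225.5 against 206.8 CPM on average) and by the largest ratio in MKI67 (365.4 against 196.8 CPM).

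The largest log2 fold change was that of MKI67 (chr10:128096659-128126385, GRCh38, minus strand), whose protein keeps mitotic chromosomes apart as a surface layer. Its level was 195.1 and 198.6 CPM in siControl and 364.3 and 366.4 CPM in siALKBH5, so that the libraries of a group lay close together and the groups far apart. MKI67 rose 1.86-fold, with a log2 fold change of 0.89 ± 0.029 (SE, 95% confidence interval 0.83 to 0.95, adjusted p = 1.4e-22). It ranked 435 of 15075 genes by log2 fold change, and its value stayed between 0.88 and 0.90 when any 1 library was left out. Its first place among the members was not kept each time. NCAPG stood higher without siControl replicate 1 (0.91 against 0.88) and without siALKBH5 replicate 2 (0.92 against 0.89).

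TOP2A (chr17:40388516-40417950, minus strand), the topoisomerase II isoform of dividing cells, was the most abundant member. It stood at 433.6 and 426.1 CPM in siControl and at 686.7 and 694.9 CPM in siALKBH5, with no overlap. TOP2A rose 1.61-fold, with a log2 fold change of 0.68 ± 0.023 (SE, 95% confidence interval 0.64 to 0.73, adjusted p = 4.2e-22). Its paralog TOP2B, which is also expressed in resting cells, was at 138.8 and 144.4 CPM in siControl and at 120.4 and 123.1 CPM in siALKBH5. TOP2B fell by 0.22 on the log2 scale (SE 0.039, adjusted p = 2.7e-05), and TOP2A accordingly made up 74.6% and 73.5% of the summed CPM per kilobase of the pair in siControl and 84.3% and 84.1% in siALKBH5.

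Condensin I is the condensin that reaches chromosomes after the nuclear envelope breaks down, and each of its 5 subunits rose, by 1.60-fold to 1.83-fold. SMC4 (chr3:160399274-160434962, plus strand), one of its ATPases, was at 90.4 and 87.3 CPM in siControl and at 156.7 and 161.9 CPM in siALKBH5. Its log2 fold change was 0.84 ± 0.040 (SE, adjusted p = 6.4e-18). SMC2 (chr9:104094260-104141417, plus strand), the partner ATPase, was at 50.9 and 51.4 CPM in siControl and at 80.9 and 82.3 CPM in siALKBH5. With a log2 fold change of 0.67 ± 0.052 (SE, adjusted p = 1.4e-12), SMC2 had the smallest log2 fold change of the complex, and its 95% confidence interval (0.57 to 0.78) overlapped that of SMC4 (0.76 to 0.93).

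The HEAT-repeat subunit NCAPD2 (chr12:6493356-6531955, plus strand), which helps the ring to engage DNA, was the most abundant condensin transcript. It was at 179.0 and 178.9 CPM in siControl and at 309.1 and 312.1 CPM in siALKBH5, and rose with a log2 fold change of 0.80 ± 0.030 (SE, adjusted p = 1.1e-20). The other HEAT-repeat subunit, NCAPG (chr4:17810902-17844862, plus strand), was at 19.7 and 18.8 CPM in siControl and at 36.5 and 34.0 CPM in siALKBH5. Its log2 fold change was 0.87 ± 0.082 (SE, 95% confidence interval 0.71 to 1.04, adjusted p = 1.6e-10), the widest error but one among the members. NCAPH (chr2:96335787-96373845, plus strand), the kleisin, was the lowest member at 16.9 and 16.7 CPM in siControl and 28.4 and 30.3 CPM in siALKBH5. Its log2 fold change was 0.80 ± 0.089 (SE, 95% confidence interval 0.62 to 0.98, adjusted p = 5.9e-09). The counts were not stated to use strand, and 33.1% of the exon bases of NCAPG lie in LCORL on the opposite strand, which held 106 to 140 counts per library against 318 to 682 for NCAPG, while TRIM59 and IFT80 cover 18.5% and 7.18% of those of SMC4 with 351 to 523 and 347 to 444 counts. MRPL51, also on the opposite strand, covers 7.49% of the exon bases of NCAPD2 with 964 to 1143 counts per library, against 2884 to 5773 for NCAPD2.

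Within condensin I the subunits kept similar proportions, and the shares of SMC2 and SMC4 were those without overlap between the groups. NCAPD2 made up 49.9% and 50.4% of the summed CPM per kilobase of the 5 subunits in siControl and 50.3% and 50.1% in siALKBH5, and SMC4 made up 19.3% and 18.8% and then 19.6% and 19.9%. SMC2 made up 14.2% and 14.5% in siControl and 13.2% in both siALKBH5 libraries. The share of NCAPG was between 6.99% and 7.83% and that of NCAPH between 9.15% and 9.60%, with overlapping groups for each.

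The cohesin members rose less. SMC1A (chrX:53374149-53422728, minus strand), an ATPase of the ring, was at 71.6 and 69.6 CPM in siControl and at 88.7 and 87.3 CPM in siALKBH5 without overlap. SMC1A rose 1.25-fold, with a log2 fold change of 0.32 ± 0.047 (SE, 95% confidence interval 0.22 to 0.42, adjusted p = 1.6e-06). Its ATPase partner SMC3 (chr10:110567691-110604636, plus strand) was at 59.4 and 55.5 CPM in siControl and at 69.2 and 64.2 CPM in siALKBH5. The libraries of each group differed by more than those of SMC1A did but the groups did not overlap, and SMC3 rose 1.16-fold with a log2 fold change of 0.22 ± 0.056 (SE, adjusted p = 0.0024). That call rested on particular libraries: the log2 fold change was 0.17 (adjusted p = 0.06) without siControl replicate 2 and 0.16 (adjusted p = 0.068) without siALKBH5 replicate 1.

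RAD21 (chr8:116845935-116874866, minus strand), the kleisin that separase cleaves at anaphase, was the most abundant cohesin transcript and the member with the smallest log2 fold change. Its level was 203.7 and 209.8 CPM in siControl and 221.2 and 229.9 CPM in siALKBH5, without overlap. RAD21 rose 1.09-fold, with a log2 fold change of 0.12 ± 0.032 (SE, 95% confidence interval 0.058 to 0.19, adjusted p = 0.0026), and its value lay between 0.099 and 0.15 when any 1 library was left out, with the call kept each time. UTP23 and RAD21-AS1 on the opposite strand cover 8.37% and 5.83% of its exon bases, with at most 278 and 17 counts per library. The lowest lower bound among condensin I, TOP2A and MKI67 was 0.57, that of SMC2, and the highest upper bound among the cohesin members was 0.42, that of SMC1A, so the 95% confidence intervals of the 7 and the 3 genes did not meet.

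A ratio of the summed members of the complexes within each library gave the same contrast without depending on the scaling between libraries. The summed CPM of the 5 condensin I members was 356.9 and 353.0 in siControl and 611.6 and 620.5 in siALKBH5, and that of the 3 cohesin members was 334.6 and 335.0 and then 379.1 and 381.4. Condensin I to cohesin was thus 1.07 and 1.05 in siControl and 1.61 and 1.63 in siALKBH5, and the log2 ratio differed by 0.61 between the groups. NCAPD2 and RAD21 were the largest terms of the sums. The cohesin subunits STAG1 and STAG2 are no members and were left out, although STAG2 stood at 211.3 and 217.3 CPM in siControl. The size of the ratio therefore depends on which genes were summed. An exact two-sided permutation test over the 4 libraries gave p = 0.333, the smallest value that 2 libraries against 2 allow. Per kilobase of listed gene length the difference was 0.62. Inside cohesin the share of RAD21 was 61.4% and 63.3% in siControl and 59.2% and 61.4% in siALKBH5, which overlapped, and that of SMC1A was 12.7% and 12.4% and then 14.0% and 13.8%, which did not. These shares also use the listed length, which for RAD21 is 6192 bases against 3749 in its principal transcript.

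**Figure D2:**
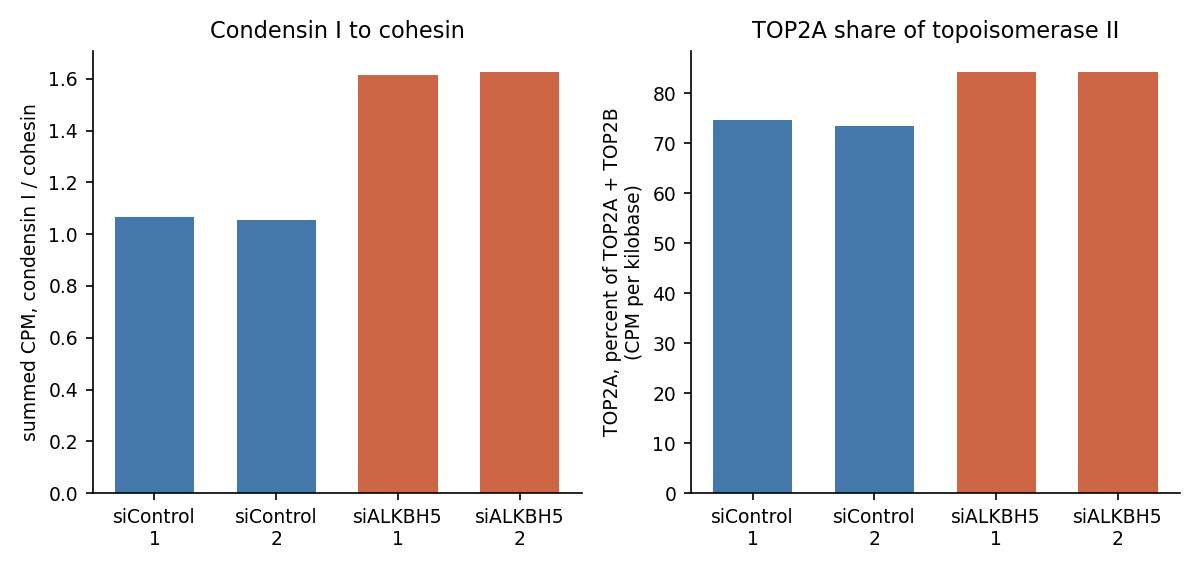
Ratio of summed CPM of condensin I to cohesin members, and share of TOP2A in the summed CPM per kilobase of TOP2A and TOP2B (percent), in each of the 4 libraries, 1 bar per library on axes that start at 0. The ratio is 1.07 and 1.05 in siControl and 1.61 and 1.63 in siALKBH5, and the TOP2A share is 74.6% and 73.5% against 84.3% and 84.1%.

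Per kilobase of listed gene length, levels can be compared between genes. In siControl the order of mean CPM per kilobase was TOP2A (66.8 ± 0.831, SD, n = 2), RAD21 (33.4 ± 0.699), NCAPD2 (27.6 ± 0.015), MKI67 (15.4 ± 0.194), SMC3 (13.4 ± 0.640), SMC4 (10.5 ± 0.260), SMC2 (7.90 ± 0.051), SMC1A (6.73 ± 0.129), NCAPH (5.14 ± 0.046) and NCAPG (3.92 ± 0.129). No neighbours in this order overlapped over the 2 libraries. In siALKBH5 TOP2A remained first at 107.3 ± 0.896 and NCAPG last at 7.17 ± 0.357 CPM per kilobase. On this length, which counts all annotated exons of a gene, NCAPD2 (47.9 ± 0.328) stood above RAD21 (36.4 ± 0.994), SMC4 (18.8 ± 0.437) above SMC3 (15.6 ± 0.828) and NCAPH (8.95 ± 0.395) above SMC1A (8.40 ± 0.094), again without overlap between neighbours, whereas each stood below that cohesin gene in siControl. Of these 3 changes of order 1 remained, that of NCAPH and SMC1A, when the length of the principal GENCODE 29 transcript was used instead, an alternative added after the data were seen. On that length RAD21 stayed above NCAPD2 in siALKBH5 (60.2 against 56.0 CPM per kilobase), and SMC4 was already above SMC3 in siControl (16.2 against 14.0).

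**Figure D3:**
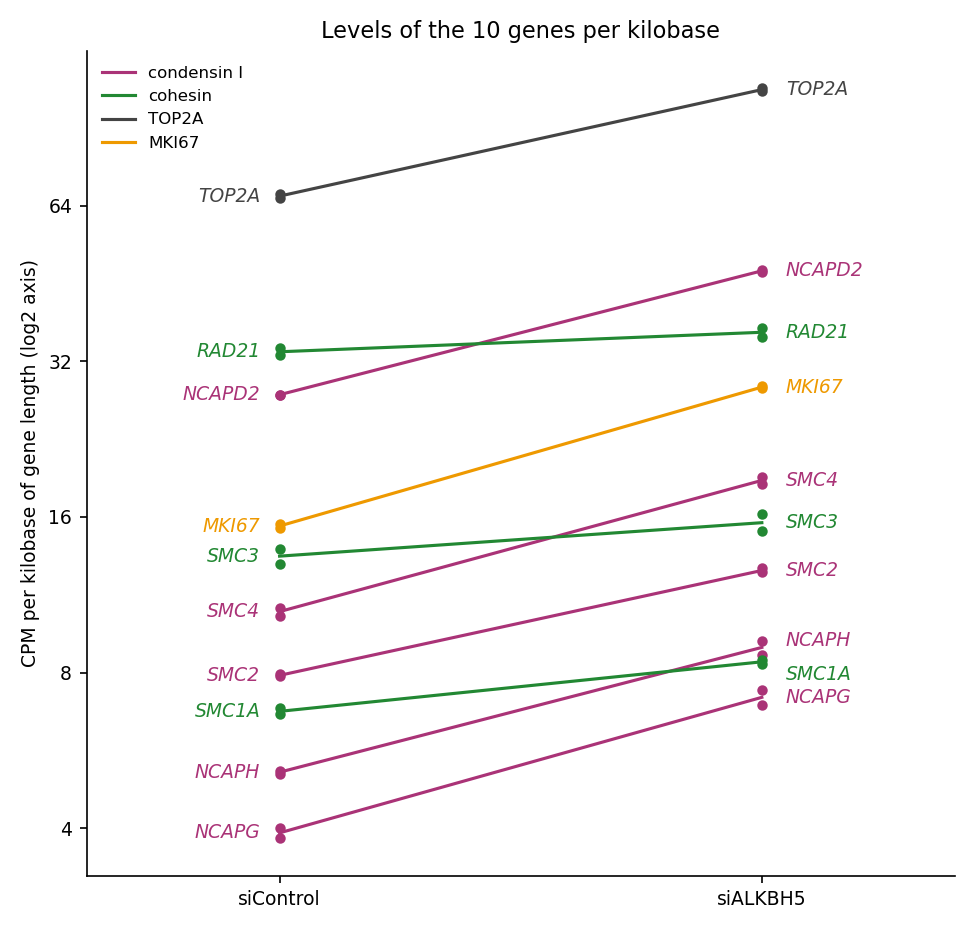
Level of each member in CPM per kilobase of listed gene length (vertical axis, log2 scale) in siControl and siALKBH5, with points for the 2 libraries of each group and lines between the group means. Lines of condensin I, TOP2A and MKI67 rise more steeply than those of the cohesin members, and on this length NCAPD2, SMC4 and NCAPH cross RAD21, SMC3 and SMC1A, of which 1 crossing, that of NCAPH and SMC1A, remains with the length of the principal transcript.

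The other genes of these pathways were read from 10 lists holding 55 genes, 9 of which are members. Of the 46 list genes that are no member, 42 were tested, and 18 were called higher, 7 lower and 17 neither, with a median log2 fold change of 0.091. Over all genes tested, 19.3% were called higher and 17.3% lower, and 29.5% of those at or above the level of the lowest member were called higher. The counts of each list below stand beside these shares, and no list was tested as a set. Condensin II, which acts in the nucleus from prophase on, shares SMC2 and SMC4 with condensin I, and its 3 own subunits were called higher with a median of 0.91. NCAPD3 was at 35.1 and 37.0 CPM in siControl and at 67.4 and 77.2 CPM in siALKBH5, with a log2 fold change of 1.00 ± 0.065 (SE, adjusted p = 2.1e-14). NCAPG2 was at 28.9 and 29.9 CPM and then at 56.6 and 53.5 CPM, with a log2 fold change of 0.91 ± 0.068 (SE, adjusted p = 6e-13). The kleisin NCAPH2 rose less, from 25.3 and 23.7 CPM to 31.1 and 33.2 CPM, with a log2 fold change of 0.39 ± 0.080 (SE, adjusted p = 1.9e-04). NCAPH accordingly made up 39.2% and 40.5% of the summed CPM per kilobase of both condensin kleisins in siControl and 46.8% in both siALKBH5 libraries.

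Of the 5 genes of the cohesin core, 3 were called higher, which are the members above, 1 was called lower and 1 was not called, with a median log2 fold change of 0.12. STAG1 and STAG2 are alternative subunits that bind RAD21. STAG1 was at 53.1 and 54.5 CPM in siControl and at 43.2 and 42.7 CPM in siALKBH5, and fell by 0.33 on the log2 scale (SE 0.061, adjusted p = 5.8e-05). STAG2 was at 211.3 and 217.3 CPM and then at 204.8 and 210.1 CPM, with a log2 fold change of -0.048 (adjusted p = 0.26) and a 95% confidence interval of -0.11 to 0.018. Meiotic cohesin genes were near the floor, with SMC1B at 1 or 2 counts per library and RAD21L1 at 0 in all, and the 2 tested genes, STAG3 (log2 fold change -0.54, adjusted p = 0.12) and REC8 (-0.74, adjusted p = 0.08), were not called. STAG3 was called lower without siControl replicate 1 (-0.78, adjusted p = 0.048).

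Among the 6 genes that load, release or bound cohesin, 3 were called higher and 1 lower, with a median of 0.038. CTCF, which stops cohesin at loop boundaries, had a log2 fold change of 0.22 (adjusted p = 0.0011), and PDS5B, which binds cohesin together with the release factor WAPL, one of -0.28 (adjusted p = 3.2e-04). PDS5A (0.14, adjusted p = 0.021) and the loader NIPBL (0.13, adjusted p = 0.039) were called higher, but neither was called when any 1 of the 4 libraries was left out, with adjusted p between 0.057 and 0.098 for PDS5A and between 0.085 and 0.17 for NIPBL, so that 1 gene remained called higher in each case. MAU2 (-0.057, adjusted p = 0.49) and WAPL (-0.098, adjusted p = 0.13) were not called.

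Genes that establish, protect or cleave cohesion differed more than the ring itself, with 6 of 8 called higher and a median of 0.95. CDCA5 (sororin), which counteracts WAPL, was at 28.4 and 28.0 CPM in siControl and at 62.1 and 66.8 CPM in siALKBH5, with a log2 fold change of 1.19 ± 0.066 (SE, adjusted p = 2.9e-16). ESPL1 (separase, the protease that cuts RAD21) was at 27.6 and 29.6 CPM and then at 63.5 and 64.0 CPM, with a log2 fold change of 1.16 (adjusted p = 4.6e-16). PTTG1 (securin, which inhibits separase) rose with a log2 fold change of 0.61 (adjusted p = 1.2e-12) and SGO2 (a shugoshin, which protects cohesin) with 0.93 (adjusted p = 9.5e-09), and ESCO2 and SGO1 were the others called higher. Neither ESCO1 (-0.041, adjusted p = 0.73) nor HDAC8 (-0.30, adjusted p = 0.13) was called. HDAC8 was called lower without siALKBH5 replicate 1 (-0.51, adjusted p = 0.03).

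Regulators of condensin and the chromosome axis were called higher in 4 of 5 cases, with a median of 0.92. These were the mitotic kinases PLK1 (log2 fold change 1.00, adjusted p = 1.6e-19), AURKB (0.96, adjusted p = 4.3e-15) and CDK1 (0.52, adjusted p = 2.6e-09) and the chromokinesin KIF4A (0.92, adjusted p = 8.5e-16). MCPH1, an inhibitor of condensin II that is named because it was the 1 gene called lower, had a log2 fold change of -0.33 (adjusted p = 0.019). Its call was lost without siControl replicate 2 (-0.31, adjusted p = 0.081) and without siALKBH5 replicate 2 (-0.18, adjusted p = 0.28).

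Of 6 partners of Ki-67 or proteins of the chromosome periphery, 2 were called higher and 1 lower, with a median of 0.10. CDCA2 (Repo-Man), a phosphatase subunit on anaphase chromosomes, rose with a log2 fold change of 0.77 (adjusted p = 2.4e-07). The nucleolar proteins NPM1 (0.18, adjusted p = 7e-08) and NCL (-0.24, adjusted p = 2.2e-08) moved in opposite directions by less. NIFK (-0.18, adjusted p = 0.18), PPP1CC (0.022, adjusted p = 0.67) and RRP1B (0.18, adjusted p = 0.097) were not called. Without siALKBH5 replicate 1, NIFK was called lower (-0.38, adjusted p = 0.0097) and RRP1B higher (0.27, adjusted p = 0.033).

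The third SMC complex and the other topoisomerases showed few calls. In SMC5/6, which acts in DNA repair, SMC5 fell by 0.28 on the log2 scale (adjusted p = 0.001), and SMC6 (0.049), NSMCE1 (0.12), NSMCE2 (-0.12), NSMCE3 (-0.0026) and NSMCE4A (0.076) were not called, with adjusted p between 0.21 and 0.99. EID3 was not tested: its siControl counts were 8 and 6 and its siALKBH5 counts 1 and 0. Among the 5 tested topoisomerases, TOP2A was called higher, TOP2B and the mitochondrial TOP1MT (-0.30, adjusted p = 0.0019) lower, and TOP1 (-0.066, adjusted p = 0.27) and TOP3A (0.11, adjusted p = 0.36) were not called, with a median of -0.066. TOP3B was also too low to test, at 2 and 3 counts in the control libraries and 4 and 11 in the knockdown libraries.

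**Figure D4:**
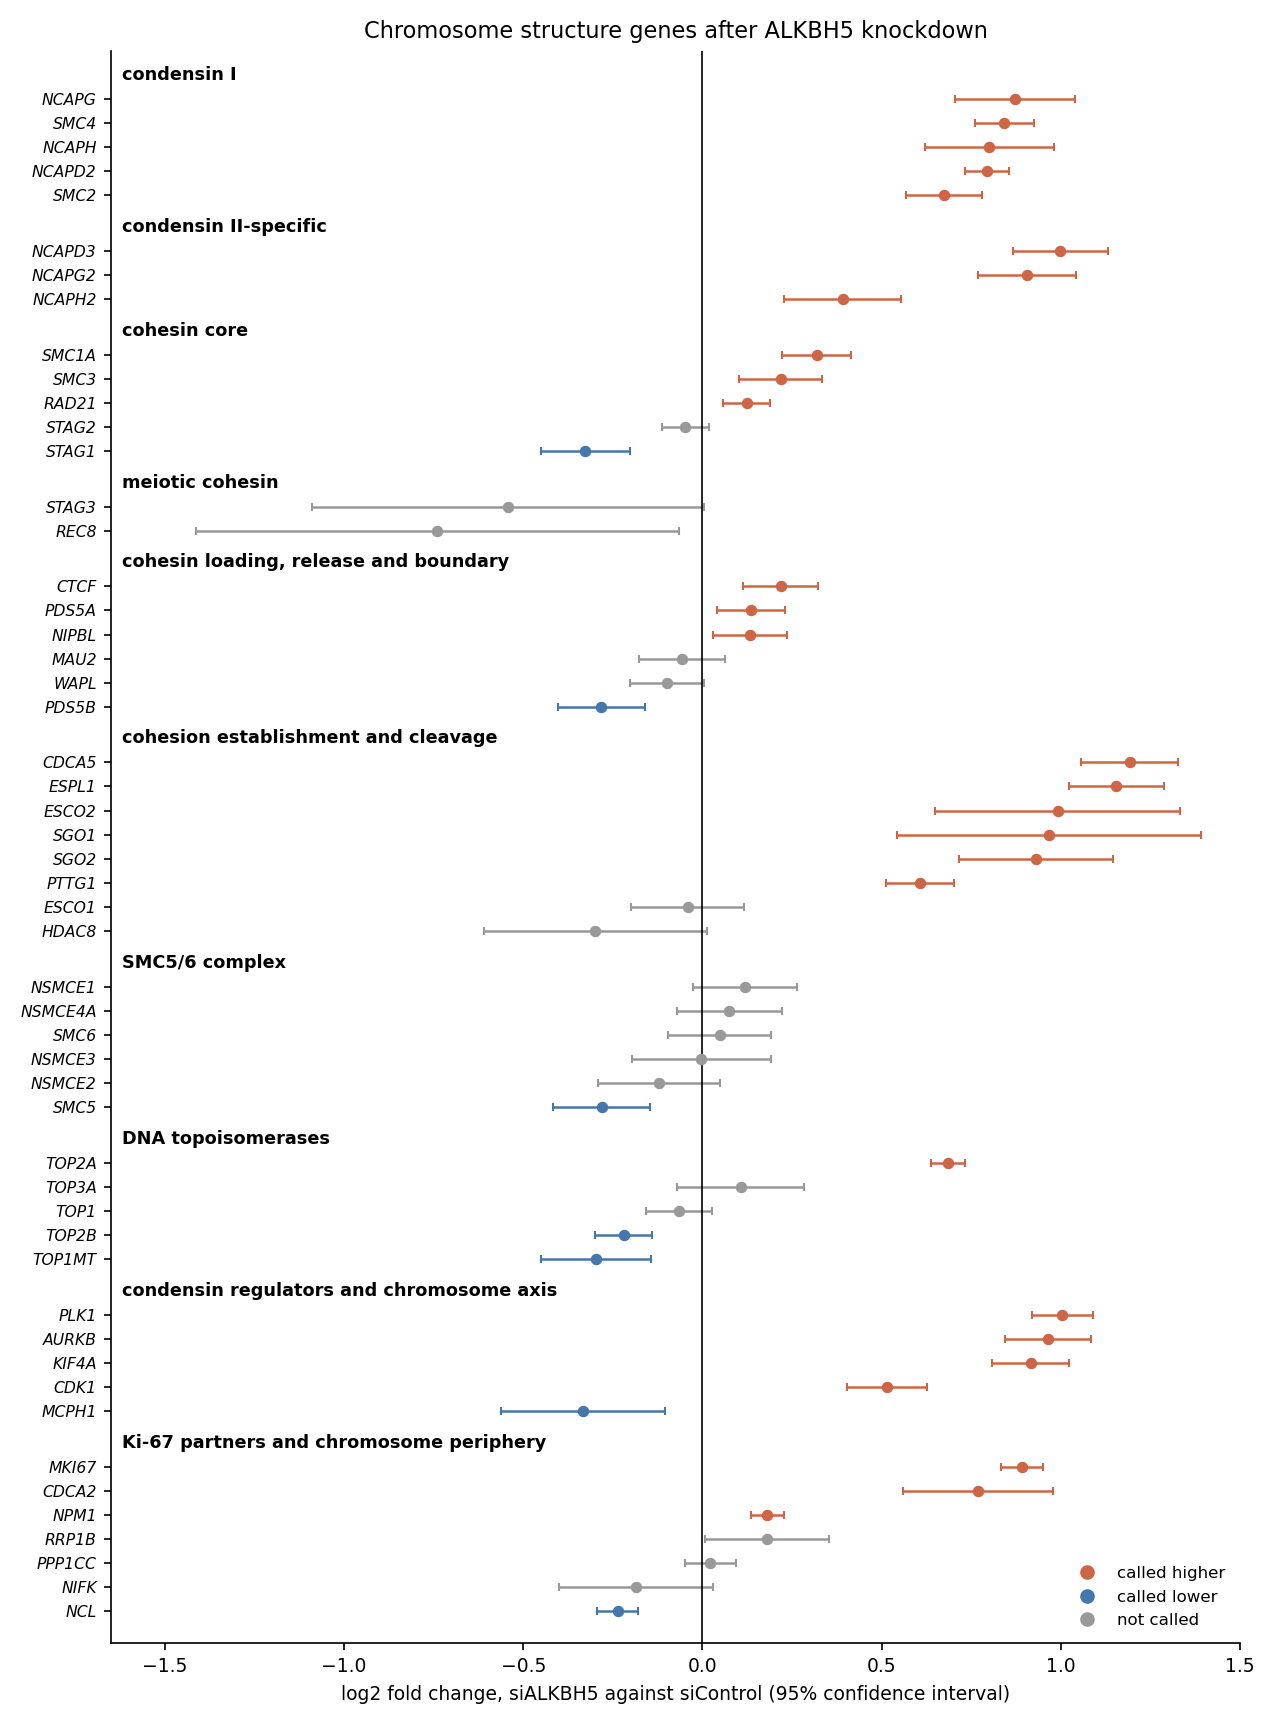
Log2 fold change, siALKBH5 over siControl (horizontal axis), with 95% confidence intervals from the edgeR fit, for every tested list gene and MKI67, grouped by list. The condensin genes lie right of 0, the cohesin core lies close to 0 on both sides, and CDCA5 and ESPL1 are the points farthest right at 1.19 and 1.16.

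Among the members, the most alike profiles of log2 CPM over the 4 libraries, each centred on its mean, were those of SMC2 and TOP2A (Euclidean distance 0.030) and the least alike those of RAD21 and MKI67 (0.768). Among 9212 genes outside the lists with a mean of at least 10 CPM, the nearest to TOP2A were KIF22, a chromokinesin (0.017), KRT5, a basal keratin (0.021), and PSMD2, a proteasome subunit (0.025). Nearest to MKI67 were KIF2C, a microtubule depolymerase (0.027), FLNA, an actin crosslinker (0.029), and OXCT1, an enzyme of ketone metabolism (0.043). Near SMC1A lay VDR, the vitamin D receptor (0.011), and GLUD1, glutamate dehydrogenase (0.015), and nearest to SMC3 were UBAP2 (0.0082), ANP32B (0.012) and LRRC7 (0.013). With 4 libraries in 2 groups these distances mostly reflect the size of the difference between groups.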

How the data were processed

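Per the labels and the study's methods, poly-A RNA of 4 HaCaT libraries was sequenced, and the authors deposited raw counts per gene without normalization and FPKM per gene. The submitters' processing notes name CASAVA, HISAT2 2.0.5, featureCounts 1.5.0-p3, DESeq2 1.20.0 and the build hg38, and all 58735 gene identifiers and coordinates are those of GENCODE 29. The deposited FPKM were not used for tests, since they were made in 2 tables, and neither were the deposited fold changes and p-values, which are the authors' own comparisons. Every column of per-sample values could be matched to a library (0 left over). The members, the lists and the motifs were chosen with earlier results of these data known, so their calls are no independent support of a direction. Groups and replicate numbers are from the sample titles.

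Counts were tested in R 4.3.3 with edgeR 4.0.16 (quasi-likelihood test, glmQLFTest after glmQLFit, TMM factors, genes kept by filterByExpr, no covariates, two-sided), with Benjamini-Hochberg adjustment over 15075 genes, and calls were made below an adjusted p of 0.05. The steps were tested on simulated data. Standard errors were calculated from the quasi-likelihood test, as the absolute log2 fold change over the square root of its F statistic. The 95% confidence intervals use these errors with a t distribution, and CPM are TMM scaled. Libraries of one group differed by more than sampling noise, with a chi-square per degree of freedom of 1.74 and 1.85 over 14841 genes. None was therefore counted as a repeated reading of another library, but this does not show that they came from separate cultures. With 16017502 to 18837807 counts per library, the members' lowest count was 273. Named genes are the members, ALKBH5, all genes of condensin II, the cohesin core and the topoisomerases, and in other lists up to 4 called genes with the lowest adjusted p and those not called. For TOP2A, MKI67, SMC1A and SMC3 the 3 nearest profiles were added, of which 1 is not reported here. Alternatives were DESeq2 1.42.0, its size factors, library size only, other filters, a replicate block, a fold threshold and each library left out. Intervals cover the spread between these libraries only.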

Additional observations from a re-analysis of the deposited data

How the results depend on the processing

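Over 100 alternative values of the 10 members, 98 kept direction and call, 2 lost the call (SMC3, with 1 library left out) and 0 turned sign. With any 1 library left out, 9 to 10 members were called higher. With a log2 fold change of at least 1 also required, 0 members were called, and the calls were 0 for condensin I and condensin II, 0 and 0 (higher and lower) for the cohesin core, for loading, release and boundary, for topoisomerases and for Ki-67 partners, 2 higher for establishment and cleavage, 0 lower for SMC5/6, 1 higher and 0 lower for condensin regulators, and 244 higher and 196 lower over all genes. DESeq2 called 1 loading gene higher, 0 regulators lower and 1431 genes lower, scaling by library size only called 1 loading gene higher, and no filter called 2 genes of SMC5/6 lower. With 1 library left out, calls ranged from 0 to 1 for meiotic cohesin lower, were 1 each time for loading higher, and ranged from 0 to 1 for establishment lower, from 0 to 1 for regulators lower and from 1 to 2 for Ki-67 partners lower. Of 420 values of the other list genes, 386 kept direction and call, 16 lost a call, 4 gained one and 14 turned sign, all in genes not called: with 1 library left out, MAU2 ranged from -0.11 to 0.0003, ESCO1 from -0.079 to 0.0037, SMC6 from -0.012 to 0.12, NSMCE3 from -0.093 to 0.093, TOP3A from -0.017 to 0.23 and PPP1CC from -0.0050 to 0.054, PPP1CC was -0.0006 with library size only, and NSMCE3 was 0.0039 with DESeq2, 0.0003 with its size factors, 0.0040 with no filter and 0.0011 with the replicate block. Same-numbered libraries were deposited in the same table, and the labels do not say whether they share a batch or a transfection. Their deviations from the group means correlated at 0.034 over 15075 genes. That value includes the counting noise of every gene, so it cannot decide whether a batch is shared. With the replicate block all 10 members were called higher, as were 3091 genes, and 2831 were lower. With the principal transcript's length, added after the data were seen, 1 of 3 changes of order between condensin and cohesin members per kilobase remained. The causes of the other shifts were not tested. The design has 2 libraries per group, so an exact test over libraries cannot go below p = 0.333.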

Other observations

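The promoter windows of the list genes that are no member were searched in the same way. Of 37 with a RefSeq window, 7 held a CHR match (18.9%), against 13.9% of the windows of genes tested. Among the 15 genes called higher the match was in 6 (40.0%), which were CTCF, ESPL1, PTTG1, CDK1, PLK1 and KIF4A. The rest of those called higher, CDCA5, NCAPD3, NCAPG2, AURKB, SGO1, SGO2, NIPBL, PDS5A and NPM1, held none. Among the 22 others the match was in 1 (4.55%), which was TOP1. CCAAT was present in 8 of 15 (53.3%) and 9 of 22 (40.9%), against 35.0% of the windows of genes tested. These shares are a description of chosen lists, and whether a motif bears on the calls was not tested. Annotated pseudogenes of the members were at 0 counts in every library except MKI67P1, with 1 and 3 counts in siALKBH5 and 0 in siControl.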
